A study of Mus musculus with 13 samples.

Results

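The genes described here are those the authors listed as changed by SB431542 in cultured mouse astrocytes. They were chosen as every row of the authors' deposited table for SB431542 against vehicle, 748 genes of 1592 in any of the 3 deposited tables. Primary astrocytes had been taken from the retina and optic nerve of C57BL/6 wild type mice of post natal day 1 to 3 and cultured with serum. The treated group had 3 samples given SB431542 and the control group had 4 samples given Vehicle, both for 24 h, and 3 samples each were given HLM006474 or Ro5-3335. The sources used here give neither the dose, nor the vehicle's composition, nor whether animals were pooled. Strain, tissue, age and medium were the same in all groups per the labels. No label ties the replicates to separate cultures or animals, so the p-values cover a spread that may be technical.

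SB431542 is a small molecule inhibitor of the receptor kinases through which TGF-beta, activin and nodal signal. These receptors phosphorylate SMAD proteins, which carry the signal to the nucleus and act on genes together with other transcription factors. In the nervous system TGF-beta is known for shaping reactive astrocytes and their matrix, and for holding microglia in the resting, ramified state in which they express genes such as Tmem119 and P2ry12. Astrocyte cultures from neonatal tissue commonly carry some microglia, the resident macrophages of nervous tissue.

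Each gene of the authors' deposited table comes with a mean normalised count over all libraries of the series, a log2 fold change of SB431542 against vehicle, its standard error and a Wald test p adjusted for multiple testing. Values are written below as log2 fold change ± standard error, and a positive value means a higher level with SB431542. Every listed gene had an adjusted p under 0.05 and a log2 fold change of at least 0.58 in size. Values per sample were not analysed here, so the depth of each library is unknown and replicates are shown only through the standard error. A gene called not listed missed one of these limits or was too low to be tested, and its value is not known from the table.

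Of 15169 genes tested, 347 were listed as higher (2.29%) and 401 as lower (2.64%), in all 4.93%. The median log2 fold change was 0.93 among the higher and -0.88 among the lower genes. A change of at least 2-fold was reached by 153 higher and 161 lower genes. The highly counted genes leaned towards lower values: of 102 genes with a mean count of 1000 or more, 75 were lower and 27 higher, against 113 lower and 131 higher among 244 genes with a mean count of 50 to 200. Of the 748 genes 376 belonged to at least one of the functional lists and symbol families used here, and 372 to none. Shares of a list given below are over all its genes, tested or not. They are therefore lower limits of the share among its tested members, which is not known. In the union of 16 immune and myeloid lists 74 listed genes were higher and 31 lower, against 273 higher and 370 lower among the other listed genes. The union covered chemokines and their receptors, complement, phagocyte receptors and lectins, Toll-like and NOD-like sensing, antigen presentation and myeloid transcription factors. The rest included microglia and macrophage markers, CD antigens, and the Schlafen and guanylate-binding families. Leukocyte genes of other lists, such as Lcp1, Hk3 and P2ry13, count among the other genes.

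**Figure D1:**
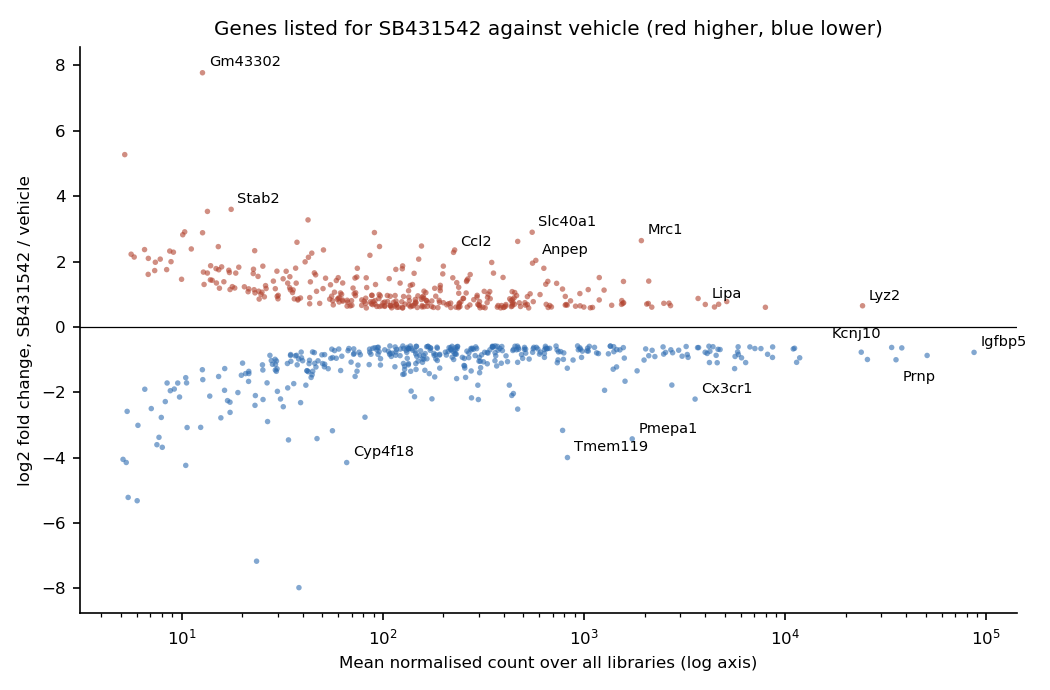
Each point is a gene listed for SB431542, with its mean normalised count over all libraries on a log axis and its log2 fold change against vehicle. Red points are the 347 higher and blue points the 401 lower genes, and Gm6565, at -23.16 ± 4.14, lies below the plotted range. The band without points around 0 is the authors' fold limit, and the most highly counted genes lie mostly below 0.

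The lowest adjusted p belonged to the fall of Tmem119, a surface protein of resident microglia, which was 16.0 times lower (95% interval 13.8 to 18.5), computed from the authors' deposited table (adjusted p = 2.62e-291, Wald test). Direct readouts of the blocked pathway were also low, with the SMAD feedback genes Pmepa1 and Skil at -3.43 ± 0.11 and -1.66 ± 0.062 (authors' deposited table). On the rising side the lowest adjusted p belonged to the mannose receptor Mrc1, a macrophage endocytic receptor, which was 6.23 times higher (95% interval 5.38 to 7.22), computed from the authors' deposited table. The iron exporter Slc40a1 was 7.45 times higher (95% interval 6.05 to 9.16), also computed from the authors' deposited table. Plau, the protease urokinase, stood at 1.16 ± 0.066 (authors' deposited table). In these bulk samples fewer cells of a type and less RNA per cell cannot be told apart.

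Markers of microglia and macrophages split in 2 directions. Of 25 markers 12 were listed (48%, against 4.93% of all genes tested), 8 lower and 4 higher. Genes of homeostatic microglia were among the lower ones: beside Tmem119, the fractalkine receptor Cx3cr1 stood at -2.21 ± 0.081, the secreted protein Olfml3 at -1.26 ± 0.075, the Fc receptor-like gene Fcrls at -0.95 ± 0.057 and the lipid receptor Gpr34 at -1.03 ± 0.15 (authors' deposited table). The higher ones were Mrc1, the lysosomal glycoprotein Cd68, the chemokine Pf4, which was 2.46 times higher (95% interval 1.94 to 3.12), and lysozyme Lyz2 at 0.65 ± 0.18 (authors' deposited table). Lyz2 was highly expressed, with 18426 mean counts per kb of exon against 4419 for the astrocyte potassium channel Kcnj10 and 6803 for C1qa, from the authors' deposited table. The other 13 markers, among them Csf1r, Ptprc, Itgam, Aif1, Trem2 and Tyrobp, were not listed. Without values per sample the summed level of these markers in each group is not known.

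Receptors by which phagocytes bind antibodies, sugars and lipids gave more rising genes than any other gene list used here. Of 63 such receptors 29 were listed (46.0%, against 4.93% of all genes tested), 22 higher and 7 lower. Their median log2 fold change was 1.48 against -0.61 over all listed genes. The scavenger receptors Cd36, Msr1 and Marco stood at 1.33 ± 0.087, 0.93 ± 0.17 and 2.26 ± 0.52 (authors' deposited table). Fcgr2b, the inhibitory Fc receptor, stood at 1.39 ± 0.10 and Fcgr4, an activating one, at 0.70 ± 0.19 (authors' deposited table). Among the C-type lectins, Clec4d, Clec4e and Clec4n, which pair with the Fc receptor gamma chain to sense microbial glycolipids and sugars, stood at 1.65 ± 0.13, 1.99 ± 0.49 and 1.48 ± 0.28 (authors' deposited table). Clec7a, the beta-glucan receptor dectin-1, stood at 1.04 ± 0.15 (authors' deposited table). Of the immunoglobulin-like receptors, Lilr4b stood at 1.97 ± 0.095 and the inhibitory Cd300a at 1.35 ± 0.14 (authors' deposited table). Pirb, another inhibitory member, was 2.83 times higher (95% interval 2.32 to 3.47), computed from the authors' deposited table.

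Not all receptors of the list went up. Siglec1, the sialoadhesin of some macrophages, stood at -0.71 ± 0.13, the inflammatory receptor Trem1 at -1.04 ± 0.28, the immune checkpoint receptor Havcr2 at -0.61 ± 0.15 and the ferritin receptor Scara5 at -0.99 ± 0.15 (authors' deposited table). Slamf9, a receptor of the SLAM family, stood at -1.30 ± 0.17 (authors' deposited table). Sirpb1a and Sirpb1c were also lower, at -2.50 ± 0.97 and -2.26 ± 0.57 (authors' deposited table), from mean counts of 7.07 and 16.9. Within the CD300, Clec4, Lilr, Pir and Sirp families the sequences are close, so reads may be split between members and single values are less certain. The microglia and macrophage markers above, with 8 lower and 4 higher, also differed between the groups, and their part in the result was not tested.

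**Figure D2:**
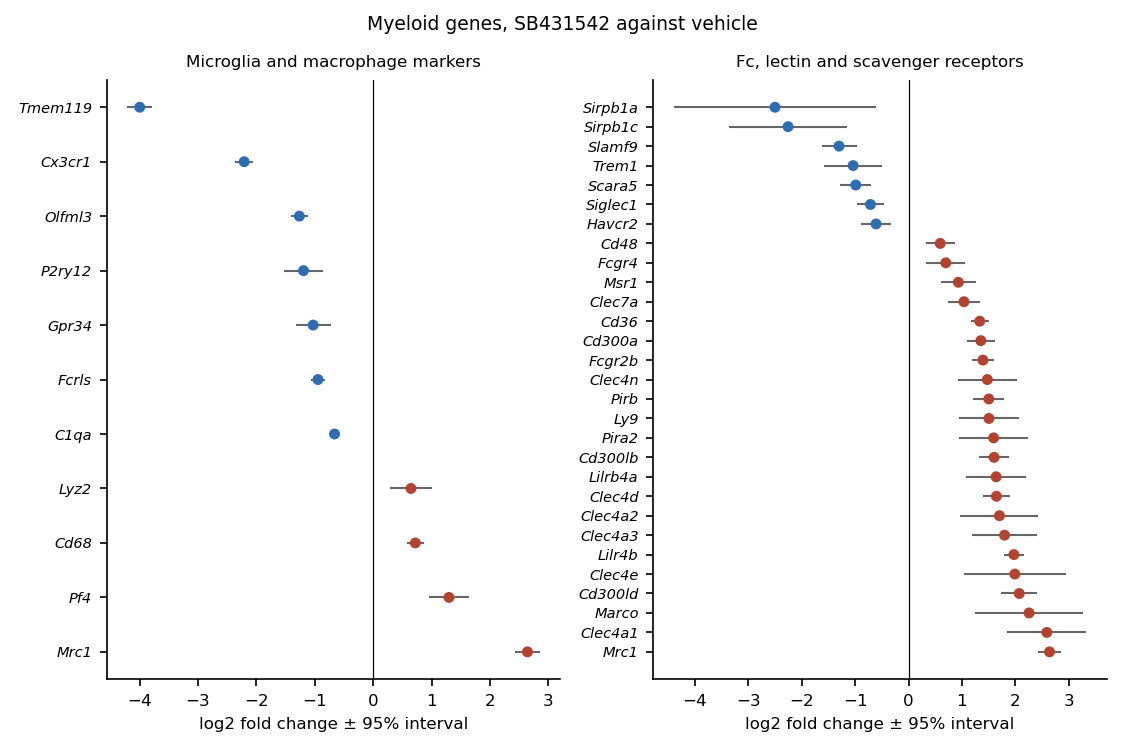
Points are log2 fold changes of SB431542 against vehicle and bars their 95% intervals, for 11 listed microglia and macrophage markers (left) and the 29 listed Fc, lectin and scavenger receptors (right). Tmem119 and Cx3cr1 lie far to the left of the markers and Mrc1, which is in both panels, far to the right, while 22 of the 29 receptors lie above 0.

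Several of these genes are neighbours on a chromosome. In the RefSeq annotation of GRCm38.p6, 739 listed genes had a position, and 170 of them lay in 73 runs of listed genes no more than 100 kb apart. Of the 97 neighbour pairs 75 moved in the same direction, where 347 of all listed genes were higher and 401 lower. How many runs or such pairs other sets of genes would give was not computed, so these counts are descriptions. The run with the most genes lies at chr11:83525778-83706269 and holds the chemokines Ccl5, Ccl9, Ccl6, Ccl3 and Ccl4 and the secreted protein Wfdc17, all 6 higher. A further run at chr11:82035577-82103399 holds Ccl2, Ccl7 and Ccl12, all higher. Ccl4, an attractant of monocytes and other leukocytes, stood at 2.89 ± 0.23, Ccl3 at 1.78 ± 0.18, Ccl2 at 2.28 ± 0.22 and Ccl5 at 1.34 ± 0.38 (authors' deposited table). The CD300 receptors at chr11:114889152-115048419 and the lectins at chr6:123122690-123289871 gave runs of 4 higher genes each.

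Whether counting used the strand is not given here, so reads of overlapping neighbours cannot be told apart.

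**Figure D3:**
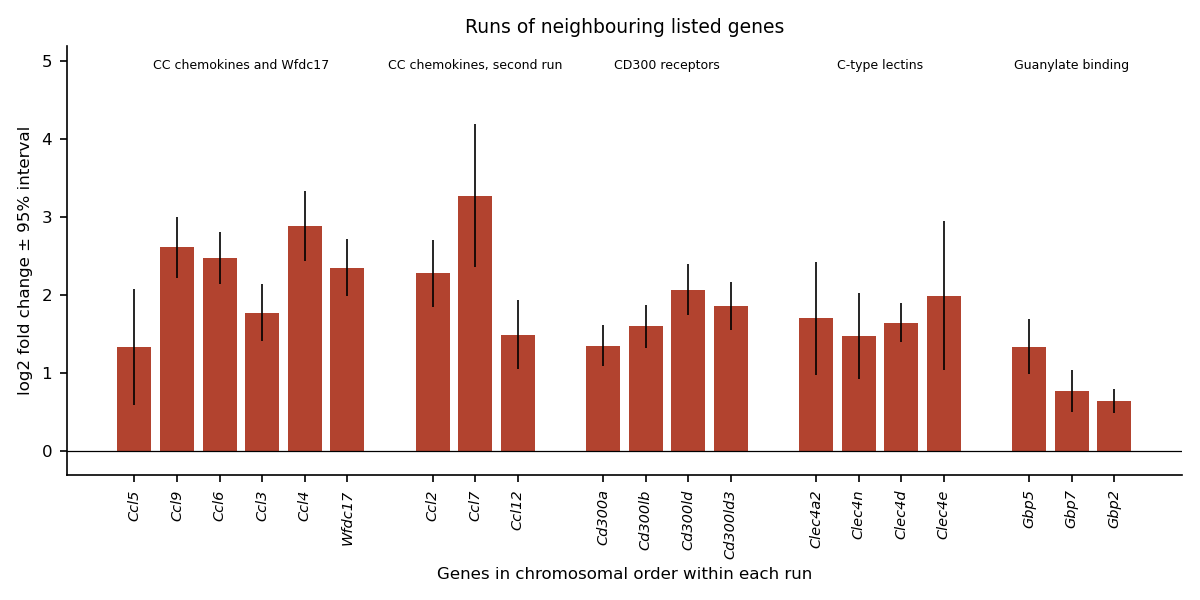
Bars are log2 fold changes of SB431542 against vehicle with 95% intervals, for listed genes in chromosomal order within 5 runs of neighbours. The chemokine, CD300, lectin and guanylate-binding runs are above 0 throughout.

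Chemoattractant receptors moved in both directions. Of 22 genes 7 were listed (31.8%, against 4.93% of all genes tested), 3 higher and 4 lower. The complement C5a receptor C5ar1 stood at 1.13 ± 0.078 and the receptor for platelet-activating factor, Ptafr, at 1.18 ± 0.17 (authors' deposited table). The second C5a receptor, C5ar2, moved the other way at -0.96 ± 0.25, as did the chemokine receptor Ccr1 at -0.84 ± 0.14 and the chemerin receptor Cmklr1 at -0.63 ± 0.16 (authors' deposited table). Ccr1 binds Ccl3, Ccl5, Ccl6 and Ccl9 among other ligands, so receptor and ligands changed in opposite directions. Genes of purinergic and related receptors and of adenosine supply were lower without exception among those listed, 5 of 24 (20.8%). Of these, P2ry12 and Gpr34 are also counted among the microglia and macrophage markers above. They included the ADP receptors P2ry12 and P2ry13, at -1.19 ± 0.17 and -0.83 ± 0.15, the fatty acid receptor Gpr84 at -0.90 ± 0.23 and the enzyme Nt5e, which makes adenosine from AMP, at -0.77 ± 0.21 (authors' deposited table).

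Complement genes were listed for 5 of 32 (15.6%, against 4.93% of all genes tested), 3 higher and 2 lower. Properdin, encoded by Cfp, which stabilises the alternative pathway convertase, stood at 1.95 ± 0.10 and the receptor Cd93 at 1.79 ± 0.11 (authors' deposited table). The classical pathway genes C1qa and C4b, the latter with a close copy, stood at -0.66 ± 0.052 and -0.60 ± 0.073 (authors' deposited table). Of 37 Toll-like and NOD-like sensing genes 5 were higher and 3 lower (21.6% listed). The lipopolysaccharide receptor Tlr4 and its co-receptor Cd14 stood at 0.64 ± 0.12 and 0.99 ± 0.099, and Tlr1 at 0.79 ± 0.23 (authors' deposited table). The endosomal nucleic acid sensors Tlr8 and Tlr9 were lower, at -0.60 ± 0.17 and -0.77 ± 0.19 (authors' deposited table). Pycard, the adaptor of inflammasomes, stood at 0.83 ± 0.13 and Naip2, a sensor of bacterial secretion proteins with near-identical copies, at -0.75 ± 0.14 (authors' deposited table).

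Antigen presentation did not move as a block, with 3 of 36 genes higher and 3 lower (16.7% listed, against 4.93% of all genes tested). The protease Ctss, which trims the class II invariant chain, stood at -0.69 ± 0.054 and the class II chaperone subunit H2-DMa at -0.64 ± 0.19 (authors' deposited table). Psmb9, an immunoproteasome subunit of class I presentation, was 1.87 times higher (95% interval 1.51 to 2.32), computed from the authors' deposited table. The inhibitory receptor Cd200r1, which binds CD200 on other cells, was 2.83 times higher (95% interval 2.05 to 3.91) and the maturation marker Cd83 stood at 0.64 ± 0.17 (authors' deposited table).

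Most listed genes of one family of cell-autonomous defence were higher. In the family of guanylate-binding, IFIT, OAS and related symbols 13 genes were listed, 12 higher and 1 lower. The family was defined by symbol pattern without a fixed number of members, and how many were tested is not known. No share can therefore be set beside the 4.93% of all genes tested that were listed. The GTPases Gbp5, Gbp6, Gbp7 and Gbp2 stood at 1.34 ± 0.18, 0.96 ± 0.15, 0.77 ± 0.14 and 0.65 ± 0.081 (authors' deposited table). Ifi207, a DNA-binding protein of the p200 family, stood at 0.87 ± 0.12 and Ifit1, which binds viral RNA, at 0.87 ± 0.25 (authors' deposited table). Ifitm10 was the lower member, at -0.93 ± 0.14, and Slfn2 and Slfn5 of the Schlafen family stood at 1.08 ± 0.11 and 0.88 ± 0.22 (authors' deposited table).

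Short sequence motifs were counted in the promoters of listed genes as a feature that the selection did not use. RefSeq promoters of build GRCm38.p6 were found for 254 higher and 280 lower genes, and the 250 bases before each start were searched on both strands. The motif GAGGAAGT, bound by the myeloid factor PU.1, was in 9.45% of higher and 3.93% of lower genes against 2.79% of all 27025 genes of the table. The interferon-stimulated response element, a pair of GAAA with any 2 bases between, was in 8.66% of higher and 4.29% of lower genes against 3.46% of all. CAGACA, a SMAD-binding motif, was in 27.1% of lower and 20.5% of higher genes against 19.3% of all. The AP-1 site TGANTCA was in 11.4% of lower and 9.45% of higher genes against 7.82% of all. The NF-kB motif, GGGA and CC with any 4 bases between, was in 28.7% of higher and 27.5% of lower genes against 19.7% of all. The motifs were also allowed to overlap each other. These shares are descriptions, and a match is not a shown binding site. The 27025 genes include genes that were not tested in these cultures, so they are not a matched background. Neighbours with similar promoters, such as Cd300ld and Cd300ld3, were counted as separate genes. GTCTAGAC, the SMAD palindrome, was in 2 lower and no higher genes, and GGAATG (TEAD), TGACGTCA (CRE) and CACGTG (E-box) were in 16.9%, 1.57% and 5.91% of higher genes against 14.4%, 1.77% and 6.86% of all. In lower genes these last 3 motifs were found in 17.5%, 2.14% and 7.86%.

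The 4 promoters below show such matches in genes that rose beside a neighbour of the same family. Each is written 5′ to 3′ on the gene's strand, ends 1 base before the start of transcription and has the match in capitals. Cd300ld lies on the minus strand at chr11:114989887-114990136 and its match begins 143 bases before the start. Cd300ld3, also on the minus strand, lies at chr11:115048331-115048580 and its match begins 187 bases before the start. Gbp2 and Gbp5 lie on the plus strand at chr3:142620413-142620662 and chr3:142496684-142496933, with matches that begin 59 and 165 bases before the start.
Cd300ld, PU.1 motif: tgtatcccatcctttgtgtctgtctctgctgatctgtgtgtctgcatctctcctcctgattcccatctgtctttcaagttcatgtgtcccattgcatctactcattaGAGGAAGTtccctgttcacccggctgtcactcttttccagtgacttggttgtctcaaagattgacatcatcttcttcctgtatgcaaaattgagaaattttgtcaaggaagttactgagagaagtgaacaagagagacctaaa
Cd300ld3, PU.1 motif: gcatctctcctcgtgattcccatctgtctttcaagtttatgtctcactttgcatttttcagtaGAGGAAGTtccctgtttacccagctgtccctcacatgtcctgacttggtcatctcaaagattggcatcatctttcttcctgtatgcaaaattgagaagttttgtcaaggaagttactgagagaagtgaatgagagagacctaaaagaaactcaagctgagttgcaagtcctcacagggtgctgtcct
Gbp2, response element: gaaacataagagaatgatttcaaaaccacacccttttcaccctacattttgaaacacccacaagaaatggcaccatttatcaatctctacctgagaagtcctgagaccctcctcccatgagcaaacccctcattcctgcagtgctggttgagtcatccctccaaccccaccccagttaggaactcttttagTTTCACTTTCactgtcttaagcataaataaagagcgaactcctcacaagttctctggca
Gbp5, response element: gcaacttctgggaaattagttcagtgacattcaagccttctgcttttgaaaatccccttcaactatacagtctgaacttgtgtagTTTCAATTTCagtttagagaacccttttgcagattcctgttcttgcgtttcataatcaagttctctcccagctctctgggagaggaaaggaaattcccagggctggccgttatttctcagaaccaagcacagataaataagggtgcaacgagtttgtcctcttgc
The receptor Cd300ld stood at 2.07 ± 0.17 and its neighbour Cd300ld3 at 1.86 ± 0.16 (authors' deposited table), and the element in Gbp2 and Gbp5 appears in reverse complement.

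Transcription factors of myeloid cells were listed for 10 of 48 (20.8%, against 4.93% of all genes tested), 8 higher and 2 lower. Egr2 and Egr3, among the higher ones, are also counted with the immediate early genes below. Spi1, which encodes PU.1, stood at 0.67 ± 0.073 and Maf at 0.70 ± 0.059 (authors' deposited table). Tfec, a macrophage relative of the lysosomal regulator TFEB, stood at 2.13 ± 0.30, the lipid sensor Pparg at 1.13 ± 0.28 and Batf, a partner of AP-1 proteins, at 1.84 ± 0.54 (authors' deposited table). Immediate early and MAPK feedback genes were higher in all 7 listed cases of 31 (22.6% listed). Egr1, Egr2 and Egr3, zinc finger factors induced within minutes of a growth stimulus, stood at 0.82 ± 0.095, 0.97 ± 0.19 and 1.27 ± 0.17 (authors' deposited table). Fosb and Fosl1, subunits of AP-1, stood at 1.62 ± 0.27 and, for Fosl1, 2.46 times higher (95% interval 1.63 to 3.70), the growth regulator Myc at 0.61 ± 0.074 and the MAP kinase phosphatase Dusp4 at 0.61 ± 0.12 (authors' deposited table). Nr4a1, an orphan nuclear receptor that is also induced early, stood at 1.40 ± 0.20 (authors' deposited table). For some of these early genes the rise was not particular to SB431542. Egr1, Egr2, Egr3, Fosb and Nr4a1 were also listed as higher with HLM006474 and with Ro5-3335, against the same vehicle samples. Fosl1 was also listed as higher with HLM006474 but not listed with Ro5-3335, and Myc and Dusp4 were listed with neither. Fosb stood at 3.22 ± 0.26 with HLM006474 and 2.19 ± 0.27 with Ro5-3335 (authors' deposited table). Of 79 developmental factors of glia and their neighbours 3 were listed, all lower (3.80%, against 4.93% of all genes tested), and Sox2, Sox9, Pax2 and Pax6 were not listed.

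Lipid handling genes were mostly higher, 6 of 8 listed from a list of 49 (16.3% listed, against 4.93% of all genes tested). Lpl, the lipoprotein lipase, stood at 1.51 ± 0.14 and Plin2, the coat protein of lipid droplets, at 0.65 ± 0.068 (authors' deposited table). Fabp4, a fatty acid carrier of macrophages and adipocytes, stood at 1.09 ± 0.36 (authors' deposited table), with a mean count of 24.2. Ch25h, which makes 25-hydroxycholesterol, and the apolipoprotein Apoc2 were lower, at -1.30 ± 0.20 and -1.51 ± 0.26 (authors' deposited table). In the lysosome list 4 of 60 genes were higher and 3 lower (11.7% listed). Lipa, the acid lipase that frees cholesterol from its esters, was 1.61 times higher (95% interval 1.52 to 1.71), computed from the authors' deposited table. The endosomal channel Mcoln2 stood at 1.34 ± 0.26 and the aspartic protease Ctse at -1.94 ± 0.63 (authors' deposited table).

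Other metal transport genes moved less than Slc40a1. Slc11a1, which exports iron from the phagosome, stood at 0.62 ± 0.19, and Slc39a8, a zinc and manganese importer, at 0.80 ± 0.15 (authors' deposited table). Tfr2, the second transferrin receptor, was lower at -1.97 ± 0.41 (authors' deposited table). The list of 34 metal genes had 3 higher and 1 lower members (11.8% listed, against 4.93% of all genes tested). Hmox1, Fth1, Ftl1 and Tfrc were not listed.

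**Figure D4:**
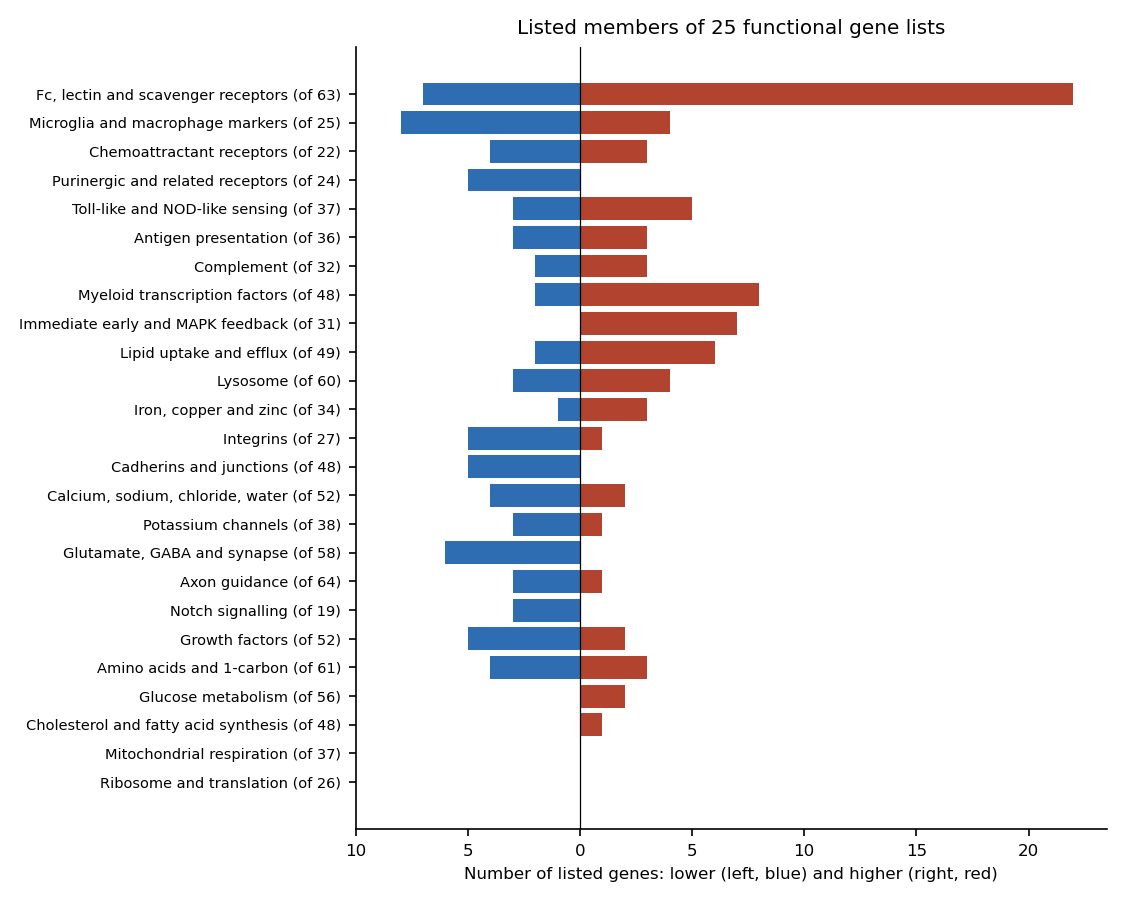
Bars give the number of listed genes that were higher (red, right) or lower (blue, left) with SB431542 in 25 functional lists, with the list size in brackets. The receptor list has 22 higher and 7 lower members, and the lists of mitochondrial respiration and of the ribosome have none.

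Genes of ion transport and excitability were mostly lower among those listed. Of 38 potassium channel genes 3 were lower and 1 higher (10.5% listed, against 4.93% of all genes tested). Of 52 genes for calcium, sodium, chloride and water 4 were lower and 2 higher (11.5% listed). Kcnj10, the inward rectifier by which astrocytes clear potassium, stood at -0.77 ± 0.037 (authors' deposited table). Cacna1c, the pore of an L-type calcium channel, stood at -1.26 ± 0.19 and the mechanosensitive channel Piezo2 at -1.54 ± 0.29 (authors' deposited table). The voltage-gated channel Kcna3 stood at -1.16 ± 0.37 (authors' deposited table). Aqp1, a water channel, and Trpv2, a cation channel of macrophages and other cells, were higher at 0.87 ± 0.12 and 0.69 ± 0.13 (authors' deposited table). The calcium-activated potassium channel Kcnn2 stood at 0.95 ± 0.23 (authors' deposited table). Of the 20 astrocyte markers Kcnj10 was the single one listed (5%, near the 4.93% of all genes tested). Gfap, Aqp4, Slc1a2, Slc1a3, Glul and Gja1 were not listed.

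Adhesion and junction genes fell in most of the listed cases. Of 27 integrin genes 5 were lower and 1 higher (22.2% listed, against 4.93% of all genes tested). The partner chains Itgav and Itgb5, which together bind vitronectin, stood at -0.61 ± 0.066 and -0.84 ± 0.029 (authors' deposited table), from mean counts of 8667 and 8177. The collagen-binding chains Itga11 and Itga2 stood at -2.10 ± 0.42 and -0.94 ± 0.33, and the leukocyte chain Itga4 at 0.67 ± 0.15 (authors' deposited table). Itga11 had a mean count of 23.3. In the cadherin and junction list 5 of 48 genes were lower and none higher (10.4% listed). They were F11r, a tight junction immunoglobulin, at -2.22 ± 0.17, the desmosome protein Dsp at -1.12 ± 0.31, the protocadherins Pcdh18 and Pcdh19 at -0.87 ± 0.19 and -0.68 ± 0.13, and Cdh19 at -0.75 ± 0.22 (authors' deposited table). The prion protein Prnp, a glycolipid-anchored surface protein, was 2.01 times lower (95% interval 1.92 to 2.10), computed from the authors' deposited table, at a mean count of 35564. Mcam, an adhesion molecule of mural and endothelial cells, stood at -0.93 ± 0.086 and the neural adhesion molecule Ntm at 0.93 ± 0.11 (authors' deposited table).

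Genes of actin and cell shape were found on both sides. Lcp1, a leukocyte plastin that bundles actin, the leukocyte myosin Myo1g, the actin nucleation factor Was and the GTPase Rac2 stood at 0.78 ± 0.091, 1.11 ± 0.15, 0.62 ± 0.11 and 0.74 ± 0.28 (authors' deposited table). Lower genes included the focal adhesion protein Tns1, the filament protein Nexn, the intermediate filament Synm and the kinesin Kif26b, at -0.61 ± 0.094, -0.59 ± 0.12, -0.93 ± 0.090 and -1.35 ± 0.17 (authors' deposited table). Of 59 actin regulators 3 were higher and 4 lower (11.9% listed, against 4.93% of all genes tested). Vav3, an exchange factor for small GTPases, stood at 0.86 ± 0.098 (authors' deposited table).

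**Figure D5:**
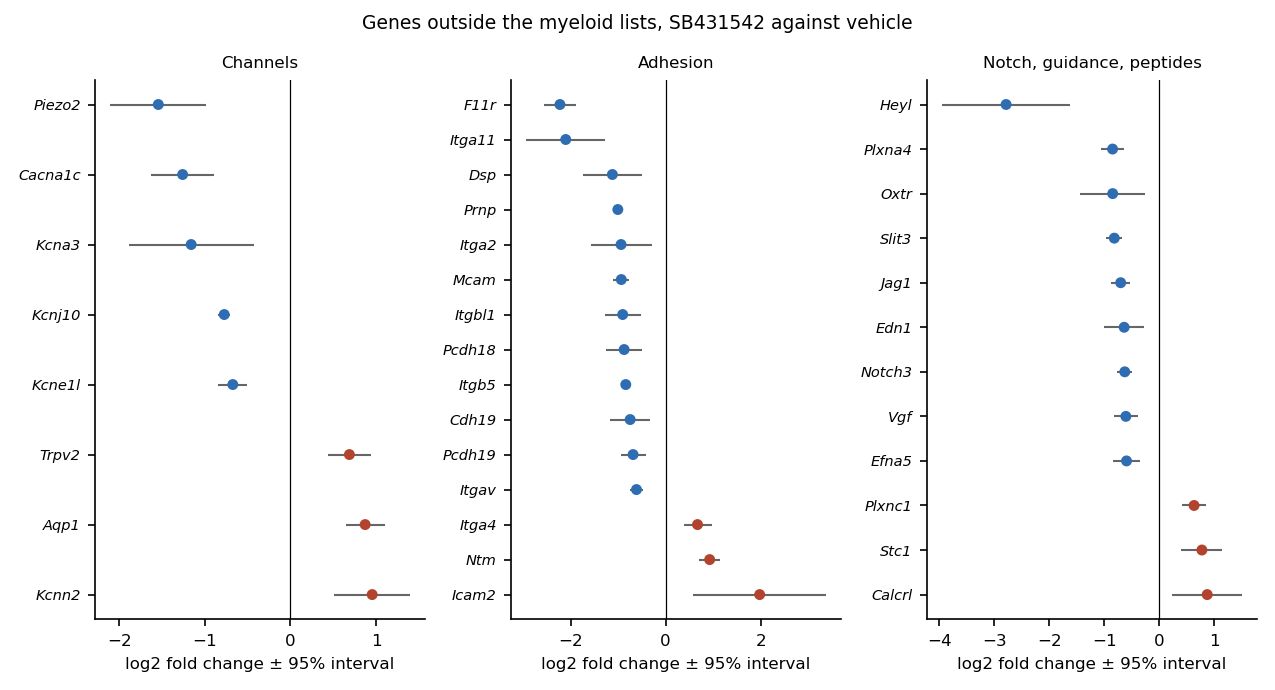
Points are log2 fold changes of SB431542 against vehicle with 95% intervals, in 3 panels for channels, adhesion genes, and genes of Notch signalling, axon guidance and peptides or hormones. Most points lie below 0 in each panel, with F11r at -2.22 ± 0.17 and Heyl at -2.78 ± 0.59.

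Of the lists for signalling between cells, 15.8% of the Notch, 14.3% of the BMP and 3.03% of the Wnt genes were listed, against 4.93% of all genes tested. How many genes of these lists were tested is not known. In the Notch list 3 of 19 genes were listed, all lower: the ligand Jag1 at -0.70 ± 0.091, the receptor Notch3 at -0.63 ± 0.070 and the target gene Heyl at -2.78 ± 0.59 (authors' deposited table). Heyl had a mean count of 15.7. In the list of BMP genes the ligand Bmp2 was higher at 1.65 ± 0.28, while the activin antagonist Fst and the inhibitory Smad7 stood at -1.25 ± 0.14 and -1.06 ± 0.15 (authors' deposited table). Id1, Id2 and Id3, which BMP signals induce, were not listed. Of 33 Wnt genes Wnt2 alone was listed, at -0.89 ± 0.29 (authors' deposited table). The guidance cues Slit3 and Efna5 and the semaphorin receptor Plxna4 were lower, at -0.82 ± 0.075, -0.59 ± 0.13 and -0.85 ± 0.11 (authors' deposited table), and the receptor Plxnc1 was higher at 0.63 ± 0.11. In the glutamate, GABA and synapse list 6 of 58 genes were lower and none higher (10.3% listed). They included Thbs2 and the glypican Gpc6, secreted or surface proteins by which astrocytes promote synapses, at -0.78 ± 0.058 and -0.83 ± 0.086, and the glycine transporter Slc6a9 at -0.80 ± 0.24 (authors' deposited table).

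Among secreted regulators 7 of 52 growth factor genes were listed, 2 higher and 5 lower (13.5%, against 4.93% of all genes tested). Osteopontin, Spp1, stood at -0.84 ± 0.071, the growth factor Pdgfc at -0.69 ± 0.083, the lipase inhibitor Angptl4 at -1.14 ± 0.34 and the vascular ligand Angpt2 at 1.29 ± 0.32 (authors' deposited table). Igfbp5, a binding protein of insulin-like growth factors, had the highest mean count of all listed genes at 86887 and stood at -0.78 ± 0.057 (authors' deposited table). Igfbp4 was higher at 0.74 ± 0.081 (authors' deposited table). Timp3, the matrix-bound inhibitor of metalloproteases, was lower at a mean count of 25642 (authors' deposited table, adjusted p = 4.34e-163, Wald test). Adam8, a membrane protease of leukocytes, and Mmp12, the macrophage elastase, stood at 1.39 ± 0.066 and 2.19 ± 0.27 (authors' deposited table). Vgf, a neuropeptide precursor, and Edn1, endothelin, were lower at -0.61 ± 0.11 and -0.64 ± 0.19, while Calcrl, the receptor of CGRP and adrenomedullin, was higher at 0.87 ± 0.32 (authors' deposited table). Among cytokine receptors the common gamma chain Il2rg stood at 0.96 ± 0.17 and the interleukin 17 receptor Il17ra at -0.78 ± 0.17 (authors' deposited table).

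Lists of core metabolism are read against the 4.93% of all genes tested that were listed. No gene was listed from 37 of mitochondrial respiration, 26 of the ribosome and translation or 44 of apoptosis and senescence. Of 56 genes of glucose metabolism 2 were listed (3.57%), the leukocyte hexokinase Hk3 at 1.51 ± 0.12 and the itaconate enzyme Acod1 at 1.65 ± 0.50 (authors' deposited table). Of 48 genes of cholesterol and fatty acid synthesis Fads6 alone was listed, at 0.78 ± 0.19 (authors' deposited table). The amino acid and 1-carbon list had 3 higher and 4 lower genes of 61 (11.5% listed). Mthfd2 and Shmt1 of folate metabolism stood at 0.70 ± 0.11 and 0.74 ± 0.14, and the proline enzyme Pycr1 at -0.84 ± 0.27 (authors' deposited table). Xdh, xanthine oxidase, stood at 1.21 ± 0.16 (authors' deposited table). Eicosanoid genes were lower for Ptgs1, cyclooxygenase 1, at -0.68 ± 0.12 and the thromboxane synthase Tbxas1 at -0.73 ± 0.18, and higher for the prostaglandin D synthase Hpgds at 1.01 ± 0.20 (authors' deposited table). Stra6, the retinol uptake receptor, stood at -2.20 ± 0.23, the retinoic acid-binding protein Crabp1 at 0.94 ± 0.19 and Cyp4f18, a fatty acid hydroxylase, at -4.15 ± 0.40 (authors' deposited table).

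Solute carriers were listed for 17 genes, 10 higher and 7 lower. This family and the sugar-decorating enzymes below were defined by symbol pattern without a fixed number of members. How many of them were tested is not known. No share can therefore be set beside the 4.93% of all genes tested that were listed. The peptide transporter Slc15a2 stood at -0.64 ± 0.075, the monocarboxylate family members Slc16a4 and Slc16a10 at -1.18 ± 0.14 and 0.65 ± 0.24, and the endosomal proton exchanger Slc9a9 at 0.77 ± 0.084 (authors' deposited table). Enzymes that decorate sugars were lower for 7 of 10, with the chondroitin sulfotransferases Chst11 and Chst3 at -0.79 ± 0.057 and -0.77 ± 0.16, Chst1 at -1.96 ± 0.18, the ganglioside enzyme St8sia1 at -0.86 ± 0.20 and the hyaluronan synthase Has2 at -1.04 ± 0.39 (authors' deposited table).

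Markers of other cell types were listed in several short lists. Of 12 mural cell markers 4 were lower and 1 higher (41.7% listed, against 4.93% of all genes tested), with the proteoglycan Cspg4 at -1.04 ± 0.14 and the aminopeptidase Anpep at 2.04 ± 0.55 (authors' deposited table). Anpep also occurs on myeloid cells. The oligodendrocyte list gave Cspg4, the endothelial list the VEGF receptor Flt1 at -1.17 ± 0.41, the Schwann cell list Cdh19 and Egr2, and the neuron list the synapsin Syn1 at -0.59 ± 0.16 and the neurofilament Nefl at 1.23 ± 0.43 (authors' deposited table). The fibroblast and meningeal list gave 2 collagen genes, both lower, and the pigment cell list none. The single lymphocyte marker listed was Cd4 at 1.19 ± 0.45 (authors' deposited table), a gene that macrophages can also express.

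Precision differed between genes. The standard error of Anpep was 0.55, 5.25 times the median of 0.10 for listed genes of like mean count (authors' deposited table). Lyz2 had an error 3.37 times the median for its mean count, Pkd1 3.49 times, the cystine transporter Slc7a11 2.74 times and Rac2 2.51 times, from the authors' deposited table. Whether 1 sample set these errors is unknown without values per sample. Errors above 1 were found for 15 genes, 12 lower and 3 higher. Of these the predicted genes Gm6565, Gm15801 and Gm8116 stood at -23.16 ± 4.14, -7.98 ± 2.60 and -7.17 ± 2.52 and Gm43302 at 7.78 ± 2.16 (authors' deposited table). With errors this large their sizes are not interpretable as fold changes. Their mean counts were 73.9, 38.3, 23.6 and 12.7, in the order named, and values per sample were not analysed here. Mean counts under 50 were found for 182 listed genes, whose median change in size was 1.60, against 0.76 for genes with a mean count of 1000 or more.

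The other inhibitors, compared with the same vehicle samples, differed from SB431542 in a number of genes that are in both tables. Most genes in both tables nevertheless moved in the same direction with both compounds. The opposite cases named below are drawn from a minority. Differences were tested with a 2-sided z test on the authors' fold changes, adjusted over 161 genes in both tables for HLM006474 and 93 for Ro5-3335. Each of these genes had already passed the authors' limits with both compounds. Opposite directions therefore fix a detectable difference in advance, and the p-values of such genes add nothing to their directions. Tmem119 stood at -1.08 ± 0.070 with HLM006474 (authors' deposited table), and the difference of SB431542 minus HLM006474 was -2.92 ± 0.13, adjusted p = 2.3e-110. Plau stood at -1.07 ± 0.077 with HLM006474 (authors' deposited table), opposite to its rise with SB431542 (difference 2.23 ± 0.10, adjusted p = 1.39e-105). Opposite directions were also found for the water channel Aqp1, at -1.13 ± 0.13 with HLM006474 (authors' deposited table) (difference 2.01 ± 0.18, adjusted p = 3.46e-28). The gamma chain Il2rg stood at -0.73 ± 0.19 with HLM006474 (authors' deposited table) (difference 1.69 ± 0.25, adjusted p = 2.08e-10). For the retinoic acid-binding gene Crabp1 HLM006474 gave -0.88 ± 0.21 (authors' deposited table) (difference 1.81 ± 0.28, adjusted p = 1.89e-09).

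Against Ro5-3335 the lectin Clec4n was an opposite case, at -1.15 ± 0.31 (authors' deposited table) (difference 2.62 ± 0.42, adjusted p = 1.36e-08). Angptl4 was higher with Ro5-3335, at 1.15 ± 0.31 (authors' deposited table) (difference -2.29 ± 0.46, adjusted p = 7.32e-06). Other genes showed no detectable difference. Clec4d stood at 1.70 ± 0.13 and Clec7a at 1.03 ± 0.15 with HLM006474 (authors' deposited table), with differences of -0.06 ± 0.18, adjusted p = 0.95 for Clec4d and 0.01 ± 0.22, adjusted p = 0.991 for Clec7a. Casq1, a calcium store protein, stood at -1.25 ± 0.14 with Ro5-3335 (authors' deposited table) (difference 0.06 ± 0.20, adjusted p = 0.994). A p above the threshold does not show that the compounds act alike.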

How the data were processed

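RNA was sequenced by the study in 13 samples, and its results were used as 3 deposited tables, 1 per inhibitor against vehicle. STAR 2.7, CASAVA 1.8, DESeq2 1.30.1 and the build GRCm38 are named per the submitters' processing notes. No source used here gives the read counter, its annotation or its strand setting. The mean normalised count is a signal level deposited by the authors. The log2 fold change and its standard error, on the log2 scale, the Wald score and the p-value with its adjusted form are also deposited by the authors, per the file headers. No values per sample were used, so depth is unknown and precision is stated by the deposited errors. Library sizes, outlying samples and batches could not be examined, and nothing here weighs deeper against shallower samples.

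From these tables genes were counted by direction, with no new test per gene. The 95% intervals are the log2 fold change ± 1.96 standard errors. The number of genes tested, 15169, was recovered from the ratio of p to adjusted p, and made 79.9% of the checked ranks whole within 0.02. Counts in 52 gene lists and 49 symbol families are descriptions. The members and lists were chosen with earlier results of these data known. Named genes were the 10 of lowest adjusted p in each direction, the 10 of largest change in each direction above the median mean count, the 10 of highest mean count, and up to 6 members of each list, those of lowest adjusted p where more were listed. Genes outside that rule were chosen after their values were seen: Batf, Casq1, Ccl5, Ccl7, Ccl12, Clec4e, Fabp4, Fcgr4, Fosl1, Gm15801, Gm43302, Gm6565, Gm8116, Has2, Havcr2, Ifit1, Marco, Pkd1, Pparg, Scara5, Siglec1, Sirpb1a, Sirpb1c, Slamf9, Slc16a10, Trem1 and those of the closing section. Some listed genes, though counted, are not reported here by name. Exonic length came from GENCODE vM21, and promoters and positions from RefSeq GRCm38.p6. Of the 748 genes 739 had a position and 534 a promoter. The z test of a difference between compounds sums both squared errors and was tested on simulated data. Calculations used Python 3.11.15, pandas 2.3.3 and scipy 1.17.1. The limits tried instead were an adjusted p under 0.01, a fold of at least 2, a mean count of at least 50, a Wald test against a fold of 1.5, and Bonferroni adjustment.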

Additional observations from a re-analysis of the deposited data

How the results depend on the processing

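The count of 347 higher genes was 259 at an adjusted p under 0.01 and 257 with a mean count of at least 50, and the 401 lower genes were 327 and 309. With a fold of at least 2 the counts were 153 higher and 161 lower, with a Wald test against a fold of 1.5 they were 62 and 88, and with Bonferroni adjustment 159 and 219. Each of these limits is stricter than the deposited one, so fewer genes pass by construction, and no gene can change sign. Of 289 genes covered by the naming rule 258 kept their call at an adjusted p under 0.01, 248 with the mean count limit, 196 with Bonferroni adjustment, 132 with the 2-fold limit and 88 in the test against a fold of 1.5. Of 90 counts in lists and families 65 moved by over 1.5 times with the 2-fold limit, 20 at an adjusted p under 0.01 and 21 with the mean count limit. Of 123 differences between compounds for such genes, 113 stayed on the same side of the threshold when the error was reduced for the shared vehicle, and 10 passed only then. No paired analysis was possible because the tables hold no values per sample, and for the same reason leaving out each replicate in turn was not run. Depth per library is unknown, so what depth limits could not be examined.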

Other observations

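Some further groups were put together after the values were seen, so their counts support nothing. A set of 12 genes of antiviral sensing outside the families above were all higher, among them the RNA helicase Dhx58 at 1.04 ± 0.31 and Trim14 at 1.06 ± 0.26 (authors' deposited table). Genes of the spindle and of cell division showed small rises in 7 cases, with the kinetochore genes Knstrn and Spdl1 at 0.67 ± 0.077 and 0.71 ± 0.13 and the histone chaperone Asf1b at 0.59 ± 0.13 (authors' deposited table). Both biliverdin reductases, which act after heme breakdown, were higher, Blvra at 0.81 ± 0.095 and Blvrb at 0.74 ± 0.13 (authors' deposited table). Striated muscle genes were lower in 9 of 13 cases, with the ubiquitin ligase Fbxo40 at -2.22 ± 0.78 (authors' deposited table).

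Adaptor and signalling genes of leukocytes were found on both sides, 20 higher and 9 lower of 29 picked. Dok2 stood at 1.76 ± 0.18 but its relative Dok3 at -0.97 ± 0.21, and Ikbke, a kinase of interferon induction, at 1.03 ± 0.12 but Irak2, a kinase downstream of Toll-like receptors, at -0.89 ± 0.15 (authors' deposited table). The lipid phosphatase Inpp5d stood at -0.82 ± 0.12 (authors' deposited table). Nrros, which anchors latent TGF-beta on microglia, was higher at 1.08 ± 0.13, while the latent TGF-beta binding protein Ltbp3 was lower at -0.77 ± 0.050 (authors' deposited table). Pappa, the protease that cleaves Igfbp4, stood at -0.87 ± 0.15, opposite to its substrate (authors' deposited table). Of 8 genes of barrier transport and thyroid hormone 7 were lower and 1, Slc16a10, higher, with the lysolipid carrier Mfsd2a at -1.34 ± 0.054 and the organic anion carriers Slco2b1 and Slco4a1 at -1.58 ± 0.16 and -2.76 ± 0.28, next to the thyroid hormone-inactivating enzyme Dio3 at -1.05 ± 0.12 (authors' deposited table). Shh, a ligand that retinal axons supply to optic nerve glia, stood at -0.59 ± 0.11 (authors' deposited table). Of genes often raised in activated microglia Spp1 was lower, whereas Lgals3 and Cst7 were higher at 0.87 ± 0.060 and 0.92 ± 0.36 (authors' deposited table). No explanation of these patterns was tested.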
